A study of Homo sapiens with 18 samples.

Results

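The cyclin-dependent kinase (CDK) inhibitor genes CDKN1A, CDKN1B, CDKN1C, CDKN2A, CDKN2B, CDKN2C, CDKN2D and CDKN3 were followed in 3 human melanoma cell lines treated with the acetyltransferase inhibitor A-485. They were taken as the genes of that name, and every probe set that the platform annotation gives to 1 of them alone was read on all 18 arrays. Of the 8 genes, 7 had such a probe set, 16 probe sets in all, out of 19775 genes on the array. CDKN2C was not analysed here. A filter on dim signals, set on the mean over all 18 arrays, was passed by 10 of the 16 probe sets. These 10 read 6 genes, 4 of them reading CDKN1C, and CDKN2B had no probe set that passed.

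The lines were SKMEL5, WM2664 and A375, established lines known to carry mutant BRAF, each grown in serum-supplemented RPMI medium and given either DMSO, the solvent, or A-485 at a dose labelled 3 mM, a unit that was not checked here. A-485 is a small molecule that blocks the catalytic site of the coactivators p300 and CBP, which acetylate histones. Cells were collected after 6 h and 24 h, with 2 DMSO arrays and 1 A-485 array for each line and time. The series compared sensitive with resistant lines, and the sample labels do not say which line is which. Nor do they say whether replicate arrays are separate cultures, and the scatter behind every p-value may therefore be partly or wholly technical.

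CDK inhibitors hold back the kinases that drive cells through the division cycle. The CIP/KIP proteins p21 (CDKN1A), p27 (CDKN1B) and p57 (CDKN1C) bind cyclin-CDK complexes, mainly those of CDK2. The INK4 proteins p16 (CDKN2A), p15 (CDKN2B), p18 (CDKN2C) and p19 (CDKN2D) bind CDK4 and CDK6 and keep them from D-type cyclins, and a second reading frame of CDKN2A encodes ARF, which stabilises p53. CDKN3 is of another kind, a phosphatase that removes the activating phosphate of CDK2, and its transcript is known to be abundant in dividing cells. CDKN1A is a classic target of p53, CDKN1C is imprinted on the short arm of chromosome 11, and CDKN2A and CDKN2B lie side by side at 9p21, a region that is often lost in melanoma.

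The 250 bases before the annotated transcription start (RefSeq, GRCh38.p14, plus strand) are shown for the 3 members whose difference between lines or times the results below turn on and whose start is listed. Capitals mark matches, on either strand, to any of 3 short motifs. The GC box, bound by SP1-type factors, was searched as GGGCGG. The CCAAT box, bound by NF-Y, was searched as those 5 letters. The cell cycle homology element CHR, common in genes of G2 and mitosis, was searched as TTTGAA.
CDKN1A, chr6:36678464-36678713: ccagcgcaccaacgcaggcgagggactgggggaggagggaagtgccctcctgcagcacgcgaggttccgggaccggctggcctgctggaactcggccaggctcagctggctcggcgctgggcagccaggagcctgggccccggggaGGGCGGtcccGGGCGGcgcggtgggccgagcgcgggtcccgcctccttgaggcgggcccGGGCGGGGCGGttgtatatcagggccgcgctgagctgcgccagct
CDKN1B, chr12:12717118-12717367: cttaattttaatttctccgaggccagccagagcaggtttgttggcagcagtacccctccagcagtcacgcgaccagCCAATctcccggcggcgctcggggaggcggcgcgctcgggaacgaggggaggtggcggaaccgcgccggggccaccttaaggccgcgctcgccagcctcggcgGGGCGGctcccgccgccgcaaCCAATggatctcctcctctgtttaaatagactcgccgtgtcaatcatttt
CDKN3, chr14:54396757-54397006: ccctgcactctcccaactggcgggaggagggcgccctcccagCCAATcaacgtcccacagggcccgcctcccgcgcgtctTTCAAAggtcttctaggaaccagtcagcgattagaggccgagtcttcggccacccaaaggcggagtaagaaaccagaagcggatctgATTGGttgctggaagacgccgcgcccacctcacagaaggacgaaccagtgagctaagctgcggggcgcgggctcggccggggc
The CDKN1A window held 4 GC boxes, the last pair of them overlapping, and neither of the other motifs. The CDKN1B window held 1 GC box and 2 CCAAT boxes. The CDKN3 window held 2 CCAAT boxes and 1 CHR element, with no GC box. None of the 3 held the E-box CACGTG, to which MYC and its partners bind. Among 35116 promoter windows of the same length, 42.6% held the GC box, 32.01% the CCAAT box, 13.3% the CHR element and 6.35% the E-box. They are matches of letters, and no binding was measured. Of the 8 genes, 7 had a window in the table, and CDKN1C had none.

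Values below are scaled intensities, in arbitrary units, after the arrays were given a common distribution; a value under the floor of 32 was set to 32 before log2 was taken and is said to be at the floor. Differences are A-485 minus DMSO on the log2 scale with the standard error (SE) of the limma fit, and a probe set was called at an adjusted p under 0.05. Each A-485 value is 1 array, assumed to vary like the DMSO pairs. Replicate DMSO arrays correlated over all probe sets tested at r between 0.986 and 0.992, and the median SE was 0.16 for a line and time. The common distribution fixed the share of probe sets above the floor, at 45.5% on each array. Of 9 melanocyte markers on the array, 9 were above the floor on all arrays of SKMEL5 and of WM2664 and 4 on all arrays of A375, where their summed level ran from 526 to 2307 against 19673 to 51763 in the other lines. Of 5 keratinocyte and epithelial markers 4, 5 and 4 were at the floor on all arrays of SKMEL5, WM2664 and A375. The exceptions were CDH1 in SKMEL5 and KRT14 in A375. Of 4 leukocyte markers 4, 4 and 2 were at the floor on all arrays, and 1 was above it on all A375 arrays. Of 3 endothelial markers 2 were at the floor and 1 above it on all arrays of each line. Fibroblast markers summed to 4018 to 5430.4 in SKMEL5, 2960 to 5703 in WM2664 and 269 to 492 in A375, most of it LUM in SKMEL5 (DMSO mean 4362) and COL1A2 in WM2664 (2785). The part of these markers in the results was not tested. On 3 DMSO arrays, probe sets that belong to another line stood slightly above the floor, with a median of 0.851% to 1.55% of the other line's level: WM2664 DMSO 6 h replicate 1, WM2664 DMSO 24 h replicate 2 and A375 DMSO 6 h replicate 1. Results that change without these 3 arrays are given with that value.

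CDKN1A rose in SKMEL5 and WM2664 at both times and did not rise in A375. On the SKMEL5 DMSO arrays CDKN1A read 831 and 872 at 6 h and 881 and 853 at 24 h, against 2096 and 2271 with A-485. In WM2664 the DMSO arrays read 817 and 849 at 6 h and 1052 and 1004 at 24 h, against 2359 and 2968 with A-485. In A375 they read 1049.9 and 1027 at 6 h and 1212 and 1126 at 24 h, and the A-485 arrays read 869 and 1073, below both DMSO arrays at each time. The 4 A-485 arrays of SKMEL5 and WM2664 thus lay above every DMSO array of any line, and those of A375 lay among or below the DMSO arrays.

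**Figure D1:**
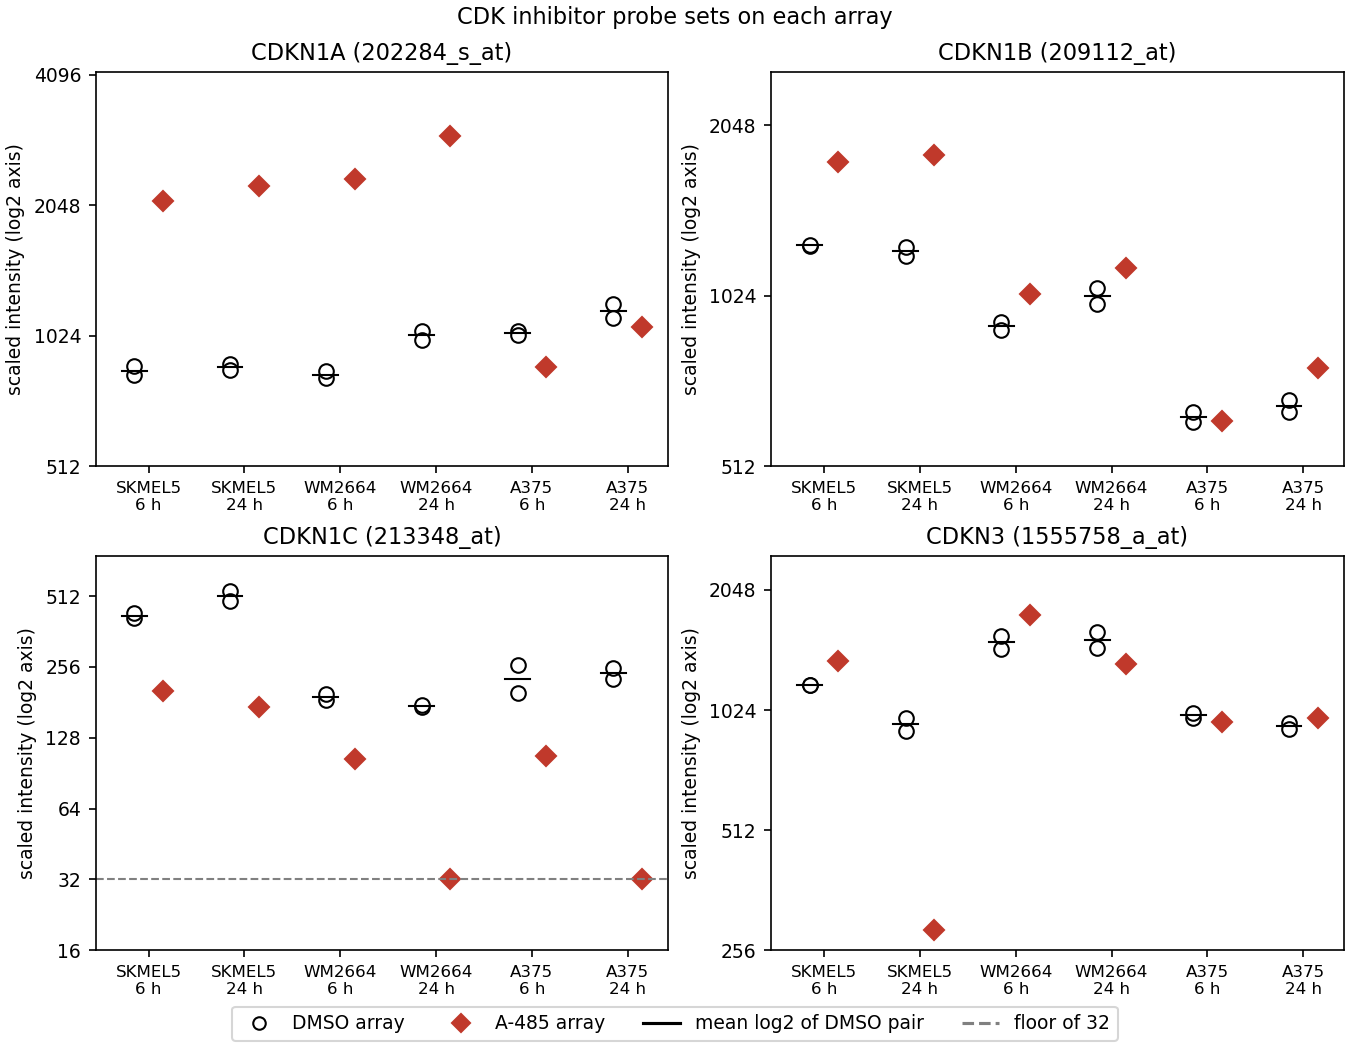
Scaled intensity (log2 axis) of CDKN1A, CDKN1B, CDKN1C and CDKN3 on each of the 18 arrays, by line and time; open circles are DMSO arrays, red diamonds the lone A-485 array, the short line the mean log2 of the DMSO pair and the dashed line the floor of 32. The CDKN1A diamonds stand at 2096 to 2968 in SKMEL5 and WM2664 and at 869 and 1073 in A375, those of CDKN1C lie below the circles in every line, and that of CDKN3 is low in SKMEL5 at 24 h.

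The CDKN1A difference was 1.30 ± 0.08 at 6 h and 1.39 ± 0.08 at 24 h in SKMEL5 (2.46-fold and 2.62-fold; adjusted p = 4.79e-05 and 1.41e-05, limma), and 1.502 ± 0.084 and 1.53 ± 0.08 in WM2664 (2.83-fold and 2.89-fold; adjusted p = 1.79e-05 and 1.10e-05). In A375 it was -0.26 ± 0.08 at 6 h and -0.12 ± 0.08 at 24 h (adjusted p = 0.112 and 0.429), and the 6 h value was called with a variance trend and robust moderation (adjusted p = 0.0439). Among all 25694 probe sets tested, 0.327% had a larger rise than CDKN1A in SKMEL5 at 6 h and 0.701% at 24 h, and 0.245% and 0.451% in WM2664. The F-test of the 3 line responses gave an adjusted p of 0.000152 at 6 h and 7.32e-05 at 24 h. The response of SKMEL5 exceeded that of A375 by 1.56 ± 0.12 at 6 h and 1.51 ± 0.12 at 24 h, and that of WM2664 exceeded it by 1.76 ± 0.12 and 1.65 ± 0.12, all called. SKMEL5 and WM2664 differed by -0.20 (95% interval -0.47 to 0.07) at 6 h and -0.14 (-0.41 to 0.13) at 24 h, which was not called. A375 has 1 A-485 array at each time, so without it the F-test compares SKMEL5 and WM2664 alone (adjusted p = 0.528 at 6 h and 0.5495 at 24 h).

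No change of the CDKN1A response with time was detected, with 24 h minus 6 h of the mean over lines at 0.08 ± 0.07 (adjusted p = 0.472). That mean includes A375, where CDKN1A did not rise. In the DMSO cultures alone, CDKN1A was higher at 24 h than at 6 h by 0.17 ± 0.04 (adjusted p = 0.0385), a call that ended under 75th percentile scaling (adjusted p = 0.1002), with values as deposited (0.713), under the replicate block (0.0582) and without the 3 arrays above (0.127), and when any single DMSO array but A375 24 h replicate 2 was left out, at an adjusted p between 0.0508 and 0.0932. Its DMSO level, averaged over both times, was 859 ± 22 (SD, n = 4 arrays) in SKMEL5, 930.3 ± 115 in WM2664 and 1104 ± 84 in A375. A375 was the highest: WM2664 minus A375 was -0.25 ± 0.05 (adjusted p = 0.00144) and SKMEL5 minus A375 -0.36 ± 0.05 (adjusted p = 0.000166), while SKMEL5 and WM2664 were not told apart (-0.11 ± 0.05, adjusted p = 0.0836; called with a variance trend and robust moderation, at 0.0342).

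CDKN1B, which encodes p27, was called higher in SKMEL5 at both times and in neither of the other lines. On the SKMEL5 arrays it went from 1255 and 1259 with DMSO to 1762 with A-485 at 6 h, and from 1204 and 1249 to 1814 at 24 h. WM2664 read 921 and 889 against 1031 at 6 h, and 991 and 1055 against 1145 at 24 h. A375 read 613 and 639 against 617 at 6 h, and 638 and 670.2 against 764 at 24 h. The A-485 array was above both DMSO arrays at both times in SKMEL5 and WM2664 and at 24 h in A375, and lay between them in A375 at 6 h.

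The SKMEL5 rise of CDKN1B was 0.49 ± 0.08 at 6 h and 0.57 ± 0.08 at 24 h (1.401-fold and 1.480-fold; adjusted p = 0.00529 and 0.00136), and both calls ended with values as deposited, without scaling (0.78, adjusted p = 0.0729, and 0.46, adjusted p = 0.325). The difference was 0.19 and 0.16 in WM2664 (adjusted p = 0.144 and 0.178) and -0.02 and 0.22 in A375 (adjusted p = 0.989 and 0.118). Whether the lines differ was not settled: the F-test gave an adjusted p of 0.0633 at 6 h and 0.0666 at 24 h, and fell under 0.05 at both times with a floor of 64 (0.0294 and 0.03495), without the filter (0.02355 and 0.0284), with a variance trend and robust moderation (0.0215 and 0.0238) and with 1 probe set per gene (0.03325 and 0.0359). The response of SKMEL5 minus that of A375 at 6 h was called, at 0.51. It was not called with a floor of 16 (limma, adjusted p = 0.0510), under the replicate block (0.0538) or with the 6 h arrays alone (0.0669). This call ended under 75th percentile scaling (adjusted p = 0.1002), with values as deposited (0.5015) and without the 3 arrays above (0.0848). It also ended when any DMSO array of 6 h was left out, at an adjusted p between 0.0562 and 0.0920. At 24 h this difference was 0.34, called only in the settings just listed for the F-test. The mean over lines was 0.22 ± 0.05 at 6 h (adjusted p = 0.00808) and 0.32 ± 0.05 at 24 h (adjusted p = 0.000952), and at 6 h the mean of WM2664 and A375 alone, without the SKMEL5 A-485 array, was 0.08 (adjusted p = 0.337). With values as deposited the 24 h mean was 0.37 (adjusted p = 0.0839).

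The DMSO level of CDKN1B was ordered SKMEL5 (1242 ± 26, SD, n = 4 arrays), WM2664 (964 ± 74) and A375 (640.1 ± 23), and no values overlapped between lines. SKMEL5 was above WM2664 by 0.37 ± 0.05 (adjusted p = 0.000148) and WM2664 above A375 by 0.59 ± 0.05 (adjusted p = 5.18e-06; with values as deposited, 0.20, adjusted p = 0.248). A375 thus had the lowest DMSO level of CDKN1B and the highest of CDKN1A.

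CDKN1C, which encodes p57, fell with A-485 in all 3 lines. Its brightest probe set read 415 and 432 with DMSO and 202 with A-485 in SKMEL5 at 6 h, and 539.7 and 489 against 173 at 24 h. WM2664 read 185 and 196 against 104 at 6 h, and 174 and 176 against 29.0, under the floor, at 24 h. A375 read 260.3 and 198 against 107 at 6 h, and 228 and 253 against 9.48, under the floor, at 24 h. Each A-485 array was below both DMSO arrays of its line and time.

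For this probe set the difference was -1.07, -0.88 and -1.09 at 6 h in SKMEL5, WM2664 and A375 (SE 0.16; adjusted p = 0.00282, 0.00528 and 0.00355). At 24 h it was -1.57 in SKMEL5 (adjusted p = 0.000199). It was -2.45 in WM2664 (adjusted p = 2.36e-05) and -2.91 in A375 (adjusted p = 1.285e-05), where the A-485 array was at the floor, so that the falls are at least this large. In A375 at 24 h 0.163% of probe sets had a larger fall. With values as deposited the 6 h calls ended in SKMEL5 (-0.70, adjusted p = 0.150), WM2664 (-0.39, adjusted p = 0.347) and A375 (-1.05, adjusted p = 0.102).

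The 3 dimmer CDKN1C probe sets that were tested moved the same way. The second brightest was called lower at both times in every line, from -1.16 in WM2664 at 6 h to -1.93 in A375 at 24 h. The third gave -0.73 in WM2664 at 6 h, which was not called, and -0.92 to -1.85 elsewhere. The fourth gave -0.45 in WM2664 at 6 h, also not called, and -0.99 to -2.24 elsewhere. On all 4 the A-485 arrays of WM2664 and A375 at 24 h were at the floor. The suffix of these 3 probe sets is the one with which the array maker marks probes that may hybridise to other transcripts too, and they tracked the brightest over the 18 arrays, after each line's mean was taken off, at r between 0.829 and 0.917. Calls of the dimmest pair depended on single arrays. For the fourth, that in WM2664 at 24 h ended when any WM2664 or A375 DMSO array was left out (adjusted p between 0.0548 and 0.104), and that in A375 at 6 h without either A375 DMSO array of that time (0.0901 and 0.0616). Without the 3 arrays above, its calls in SKMEL5 at 6 h, WM2664 at 24 h and A375 at 6 h ended (0.0856, 0.217 and 0.225). For the third, that in A375 at 6 h ended without the 3 arrays (0.115), and that in SKMEL5 at 24 h without SKMEL5 DMSO 24 h replicate 1 (0.102). With values as deposited, the second lost its calls at 6 h in SKMEL5 (-1.06, adjusted p = 0.0507) and WM2664 (-0.73, 0.0926). The third then kept its call in A375 at 24 h alone, its other adjusted p-values running from 0.0564 to 0.563, and the fourth lost those in SKMEL5 at 6 h (0.0571) and WM2664 at 24 h (0.161). With a floor of 64, the third was not called in WM2664 at 24 h (0.252) or in A375 at 6 h and 24 h (0.0992 and 0.0541), nor the fourth in WM2664 at 24 h (1) or A375 at 6 h (0.421). The fifth probe set of CDKN1C was at the floor on all arrays.

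Averaged over lines, the 4 tested CDKN1C probe sets gave -1.01 to -1.48 at 6 h and -1.39 to -2.31 at 24 h, all called. On the brightest, the mean response at 24 h minus that at 6 h was -1.30 ± 0.13 (adjusted p = 0.000575), while the second, the third and the fourth gave -0.20, -0.19 and -0.67 and were not called. All 3 were called with a floor of 16 (-0.80, -0.85 and -1.31), and the fourth also without either SKMEL5 DMSO 6 h array (-0.82 and -0.52). At 24 h and the main floor the F-test between lines was called for the brightest probe set alone (adjusted p = 0.00842). The same F-test called the second with a floor of 16 and of 64 (0.00949 and 0.0366) and the third with a floor of 16 (0.0200). It called the fourth with a floor of 64 (0.0155) and with the 24 h arrays alone (0.0270). On the brightest probe set, the lines compared as follows. On it the response of SKMEL5 minus that of A375 was 1.335 ± 0.220 (adjusted p = 0.00438) and SKMEL5 minus WM2664 0.88 ± 0.22 (adjusted p = 0.0429), with the smaller fall in SKMEL5 at this floor. With a floor of 16 SKMEL5 minus WM2664 was 0.94 on the second probe set (limma, adjusted p = 0.0471, called). With a floor of 64 it was -0.12 on the brightest probe set (adjusted p = 0.777) and -0.88 on the second (adjusted p = 0.0283, called). On these probe sets the A-485 array of 24 h read 29.0 and 18.1 in WM2664 and 173 and 96.8 in SKMEL5. A floor of 64 thus cuts short the WM2664 fall and not that of SKMEL5. The turn of sign therefore does not show a smaller fall in WM2664. The F-test on the brightest was not called with that floor (0.243) or with values as deposited (0.128). Without the SKMEL5 A-485 array of 24 h it compares WM2664 and A375 alone (0.217). The call against WM2664 ended without the 3 arrays above (adjusted p = 0.0635), and when any DMSO array but the A375 pair of 6 h was left out, at an adjusted p between 0.0510 and 0.0932. On the fourth probe set the WM2664 DMSO arrays read 62.8 and 64.5 and the A-485 array 16.8, under the floor, so its fall in WM2664 has only a lower bound and the lines cannot be ranked on it.

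With DMSO, CDKN1C was highest in SKMEL5 on all 4 probe sets. The brightest read 469 ± 57 (SD, n = 4 arrays) there, 183 ± 10.4 in WM2664 and 235 ± 28 in A375. SKMEL5 was above WM2664 by 1.35 ± 0.09 and above A375 by 1.00 ± 0.09, both called. WM2664 minus A375 was -0.36 ± 0.09 (adjusted p = 0.00640), a call that ended without the 3 arrays above (-0.24, adjusted p = 0.0567).

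**Figure D2:**
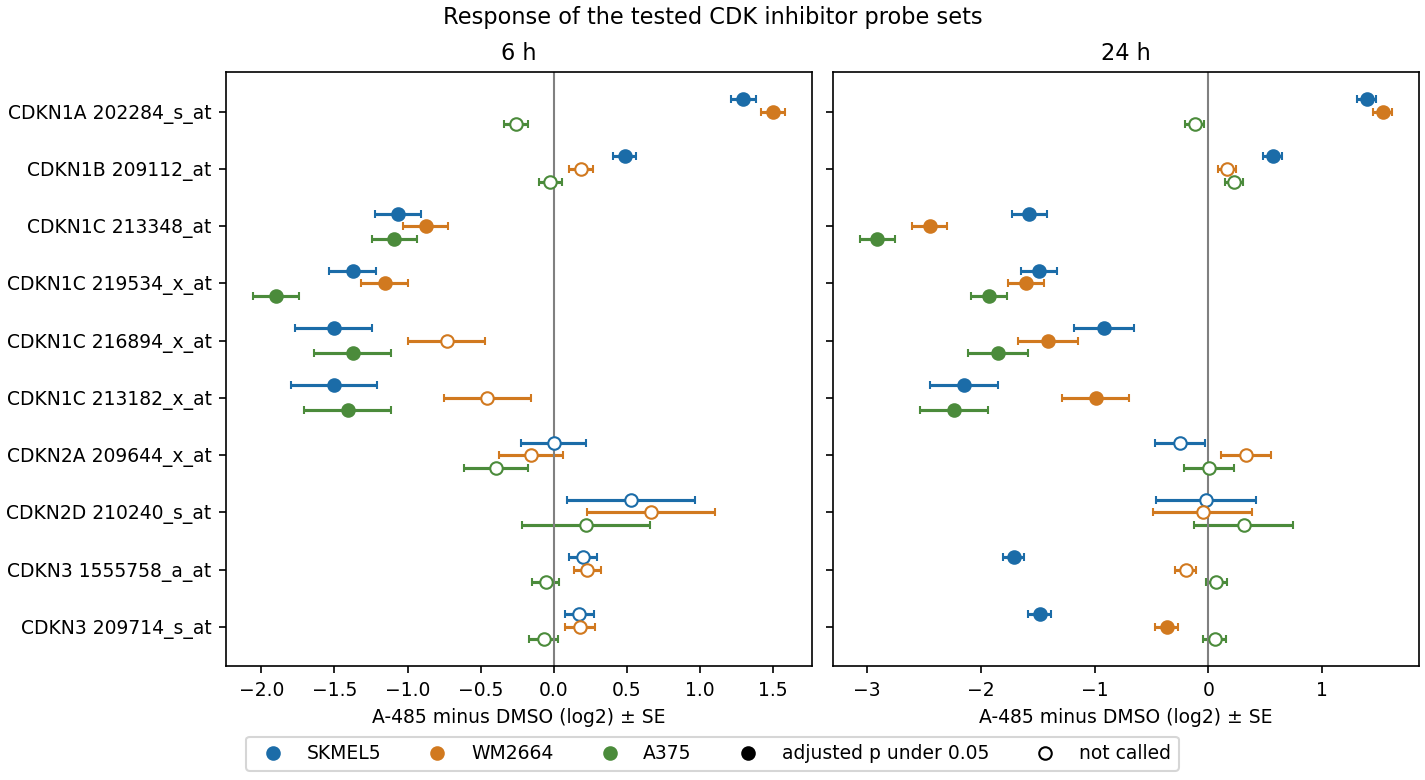
A-485 minus DMSO (log2, with ± 1 SE) for the 10 tested CDK inhibitor probe sets at 6 h and 24 h in SKMEL5, WM2664 and A375; filled points were called at an adjusted p under 0.05. CDKN1A lies above 1 in SKMEL5 and WM2664 and below 0 in A375, the 4 CDKN1C probe sets lie below 0 in every line, and CDKN3 is far below 0 in SKMEL5 at 24 h.

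The INK4 genes were dim or not seen. All CDKN2B readings, on 2 probe sets and 18 arrays, were at the floor, the highest being 14.99. Of the 3 CDKN2A probe sets, a pair were at the floor on all arrays (highest 26.5 and 10.3). The remaining 1 read 67.5 to 97.8 on the 6 A375 arrays. It carries the same suffix as the dimmer CDKN1C probe sets, which marks probes that may hybridise to other transcripts too. In SKMEL5 it was above the floor on 1 of 6 arrays (45.1) and in WM2664 on 2 of 6 (39.7 and 40.3). Its DMSO level averaged 81.9 ± 12.05 (SD, n = 4 arrays) in A375, and SKMEL5 minus A375 was -1.22 and WM2664 minus A375 -1.27. It passed the filter only through A375, so these differences are a description. No response of CDKN2A to A-485 was detected in A375, with 80.8 and 97.8 against 67.5 at 6 h and 68.5 and 80.5 against 74.5 at 24 h (-0.40 ± 0.22 and 0.00 ± 0.22, adjusted p = 0.361 and 1).

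CDKN2D, the gene of p19, had 1 probe set at the floor on all arrays and 1 at a low level. The latter averaged 29.1 ± 10.4 (SD, n = 4 DMSO arrays) in SKMEL5, 62.3 ± 21 in WM2664 and 98.5 ± 17 in A375. In SKMEL5 it was above the floor on 2 of 4 DMSO arrays, so differences from that line are bounds: SKMEL5 minus A375 was -1.53 or lower (adjusted p = 0.000597) and SKMEL5 minus WM2664 -0.81 or lower (adjusted p = 0.0201). WM2664 minus A375 was -0.71 ± 0.25 (adjusted p = 0.03145). Without the 3 arrays above SKMEL5 minus WM2664 was -0.39 (adjusted p = 0.1775), and the calls involving WM2664 also ended when any of several DMSO arrays was left out, at an adjusted p of up to 0.109. With A-485, CDKN2D read 50.8 and 18.5 in SKMEL5, 89.9 and 60.4 in WM2664, and 115 and 119 in A375 at 6 h and 24 h. No line or time was called, with an SE of 0.44. The mean over lines at 6 h was 0.47 (adjusted p = 0.186), and it was called with values as deposited (0.73, adjusted p = 0.0362) and without WM2664 DMSO 6 h replicate 1 (0.65, adjusted p = 0.03855).

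The genes around CDKN2A and CDKN2B were read as well (brightest probe set of each of 17 genes of 9p21). In SKMEL5, 13 of the 17 were at the floor on all 6 arrays, in WM2664 7 and in A375 6. The same share over all genes is not given here. Over the 18 arrays 11905 of 19775 genes passed the filter on dim signals by brightest probe set, and 11 of these 17 did. Differences between lines were common, with the DMSO level called different for 87.8% of all probe sets tested. MTAP, the methylthioadenosine phosphorylase gene that neighbours CDKN2A, was between -12.8 and 3.26 in SKMEL5, 141 and 293 in WM2664 and 951 and 1034 in A375. On the other side, CAAP1, PLAA and IFT74 were at the floor on all SKMEL5 arrays, with highest readings of 17.45, 15.25 and 4.34. They were above it on every array of the other lines, where PLAA ran from 216 to 502 in WM2664 and from 965 to 1667 in A375. TUSC1 and ELAVL2, which follow CDKN2B, and MIR31HG were above the floor on all arrays in A375 alone, TUSC1 at 1772 to 2042 there against at most 41.6 in WM2664. KLHL9, FOCAD and MLLT3, further along the same arm, were above the floor on all 18 arrays. HACD4 was lowest in A375, at the floor on all arrays there (highest 8.57). It was above the floor on all 6 arrays of WM2664 (54.6 to 106) and on 2 of 6 in SKMEL5. DMRTA1, TEK, IFNA1, IFNB1 and CDKN2B-AS1, the antisense RNA of the locus, were at the floor throughout. Of the MTAP probe sets, 1 stood apart, at 35.2 to 77.8 in all 3 lines. Another was at the floor on all SKMEL5 and WM2664 arrays (highest 22.1 and 14.5). In A375 it was above the floor on 3 of 6 arrays (highest 40.1). DNA was not measured, and these values describe RNA only.

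**Figure D3:**
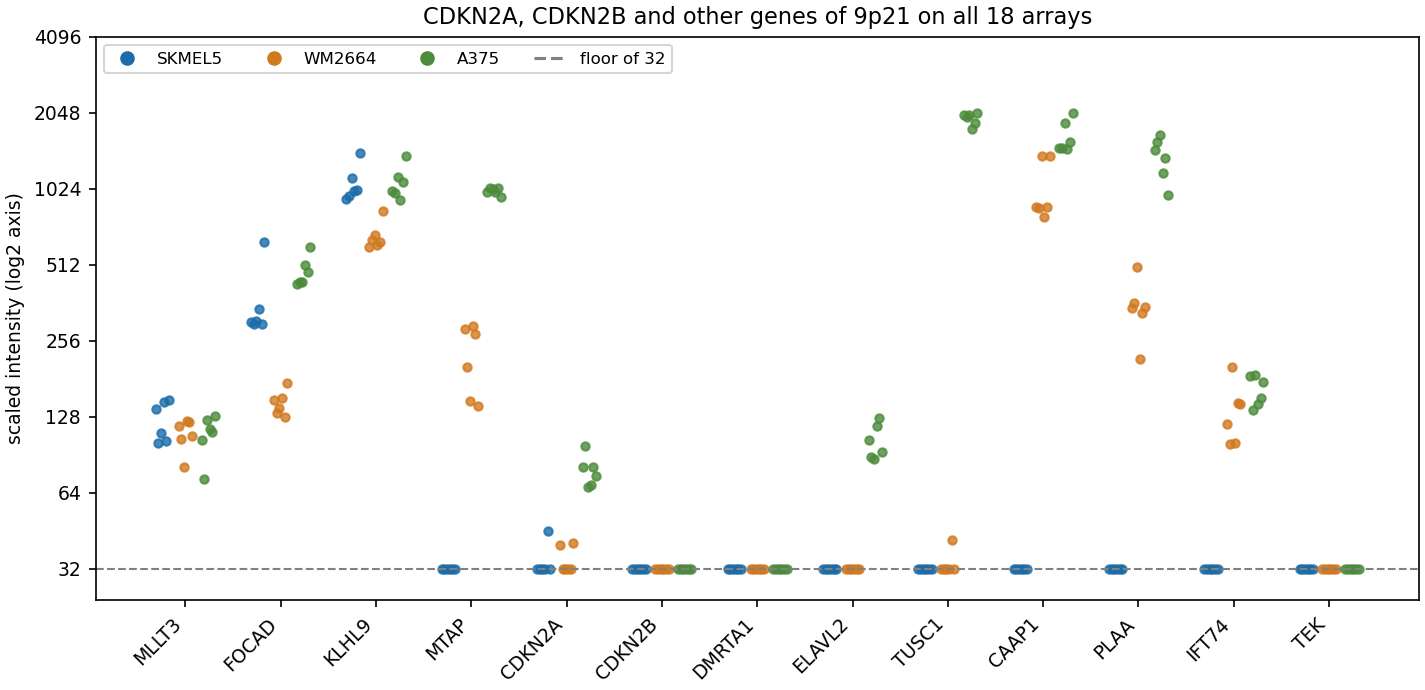
Scaled intensity (log2 axis) of the brightest probe set of CDKN2A, CDKN2B and 11 other genes of 9p21 on all 18 arrays, coloured by line and placed at the floor of 32 (dashed line) where the value was below it. SKMEL5 is at the floor from MTAP to TEK apart from 1 CDKN2A array at 45.1, and A375 is the line with CDKN2A, ELAVL2 and TUSC1 above the floor on all 6 arrays. The CDKN2A probe set shown may hybridise to other transcripts too.

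CDKN3 fell in SKMEL5 between 6 h and 24 h of A-485. Its brighter probe set read 1180.3 and 1183 with DMSO and 1359 with A-485 at 6 h, and 907 and 980.1 against 288 at 24 h. WM2664 read 1456 and 1572 against 1777 at 6 h, and 1611 and 1469 against 1339 at 24 h. A375 stayed between 915 and 1009 on all 6 arrays. The second probe set gave 853 and 955 with DMSO against 323 with A-485 in SKMEL5 at 24 h, and both probe sets correlated at r = 0.994 over the 18 arrays after each line's mean was taken off.

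In SKMEL5 at 24 h the differences on the brighter and the second probe set were -1.71 ± 0.09 and -1.48 ± 0.10 (3.28-fold and 2.79-fold lower; adjusted p = 8.75e-06 and 2.77e-05), where 1.58% and 2.38% of probe sets had a larger fall. At 6 h they were 0.20 and 0.18 (adjusted p = 0.195 and 0.292), and 24 h minus 6 h of the SKMEL5 response was -1.91 ± 0.13 and -1.66 ± 0.14, both called. In WM2664 at 24 h they were -0.20 (adjusted p = 0.156) and -0.37 ± 0.10 (adjusted p = 0.0285), the latter no longer called without WM2664 DMSO 24 h replicate 1 (-0.29, adjusted p = 0.0960), without the 3 arrays above (0.0573), with the 24 h arrays alone (0.0979) or with values as deposited (-0.06, adjusted p = 0.951). In A375 they were 0.07 and 0.06 at 24 h (adjusted p = 0.745 and 0.832).

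The lines differed in the CDKN3 response at 24 h (F-test, adjusted p = 0.000105 and 0.000431) and not detectably at 6 h (0.370 and 0.487). SKMEL5 has 1 A-485 array at 24 h, so without it the F-test compares WM2664 and A375 alone (adjusted p = 0.233 and 0.0911). The mean over lines at 24 h is then that of these 2 lines, and went from -0.61 and -0.60 to -0.07 and -0.16 (adjusted p = 0.508 and 0.142). The change of that mean from 6 h to 24 h, -0.74 and -0.69, was -0.15 and -0.21 in these 2 lines alone. With DMSO, CDKN3 was highest in WM2664 (1527 ± 77, SD, n = 4 arrays, on the brighter probe set, against 1063 ± 141 in SKMEL5 and 963 ± 40 in A375). SKMEL5 minus WM2664 was -0.53 ± 0.05 and WM2664 minus A375 0.66 ± 0.05, both called and both lost with values as deposited (adjusted p = 0.0524 and 0.132). SKMEL5 minus A375 on this probe set was 0.13 (adjusted p = 0.0532), not called, and was called with a floor of 64 (0.0365), a mean log2 of at least 6 (0.0426), a variance trend and robust moderation (0.0233) and 1 probe set per gene (0.0385), and without SKMEL5 DMSO 24 h replicate 1 (0.03755) or either WM2664 DMSO 24 h array (0.0453). On the second SKMEL5 was above A375 by 0.16 (adjusted p = 0.0363), which turned to -0.068 with values as deposited, was not called without the 3 arrays above (0.15, adjusted p = 0.0799) and was not called when any A375 DMSO array or 3 of the 4 SKMEL5 ones was left out, at an adjusted p between 0.0556 and 0.104.

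Counted over probe sets, 6 of the 10 tested were called in SKMEL5 at 6 h, 2 higher and 4 lower, where 18.2% of all 25694 probe sets tested were called (9.10% higher, 9.06% lower). At 24 h the count there was 8, 2 higher and 6 lower, where 31.8% of all were called (17.0% higher, 14.7% lower). In WM2664 it was 3 at 6 h, 1 higher and 2 lower, where 22.6% were called (11.8% higher, 10.8% lower). At 24 h it was 6, 1 higher and 5 lower, where 28.9% were (15.2% higher, 13.7% lower). In A375 it was 4 at each time, all of them CDKN1C and all lower, where 9.09% were called at 6 h (3.23% higher, 5.86% lower) and 13.2% at 24 h (6.14% higher, 7.04% lower). For the mean over lines the counts were 6 at 6 h against 35.2% and 8 at 24 h against 44.1%. The response differed between lines for 1 of the 10 at 6 h against 9.46%, and for 4 at 24 h against 21.4%. The DMSO level differed between lines for 9 of 9, where 87.8% of all probe sets did; the CDKN2A probe set is left out of this count because it passed the filter only through A375. The mean response changed between 6 h and 24 h for 3 against 14.5%, and the DMSO level changed with time for 1 against 10.2%. Since 4 of the 10 probe sets read CDKN1C and 2 read CDKN3, these counts describe 6 genes: by gene, 3 were called in SKMEL5 at 6 h and 4 at 24 h, 2 at each time in WM2664 and 1 in A375.

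Other genes of the cell cycle were counted by their brightest probe set. Over all 11905 genes tested in this way, the shares called higher and lower in SKMEL5 were 11.5% and 9.64% after 6 h and 20.4% and 16.5% after 24 h. In WM2664 the shares were 14.9% and 11.4% at 6 h, and 17.7% and 15.9% at 24 h. In A375 they were 4.08% and 6.77% at 6 h, and 7.15% and 8.32% at 24 h. The median difference over all genes lay between 0.01 and 0.04 in each.

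Among 15 genes of G2 and mitosis, 13 were lower and 0 higher in SKMEL5 at 24 h, with a median of -1.56. TOP2A, the topoisomerase of dividing cells, gave -2.75, BUB1, a spindle checkpoint kinase, -1.78, and CDC25C, a phosphatase that activates CDK1, -1.49, all called. In WM2664 at 24 h 11 were lower and 0 higher (median -0.54), TOP2A at -0.43. In A375 at 24 h 2 were lower and 0 higher (median 0.07). At 6 h 4 were higher and 2 lower in both SKMEL5 and WM2664 (medians 0.27 and 0.19), and 0 were called in A375 (median 0.01). CDC25B and WEE1, which act on CDK1 in opposite ways, were both lower at both times in SKMEL5 and WM2664.

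Among 22 tested genes of the G1 and S phase machinery, 3 were higher and 13 lower in SKMEL5 at 24 h (median -0.97), 3 and 6 in WM2664 (median -0.09) and 4 and 1 in A375 (median 0.12). At 6 h the counts were 2 and 4, 6 and 3, and 2 and 2 in the same order of lines (medians -0.09, 0.12 and 0.09). CDK2, the main target of the CIP/KIP proteins and a substrate of CDKN3, gave -0.85 and -1.85 in SKMEL5 and -0.39 and -1.37 in WM2664 at 6 h and 24 h, all called, and -0.02 and -0.11 in A375. Cyclin D1 (CCND1) fell at 6 h in all 3 lines (-1.01, -0.74 and -1.29 in SKMEL5, WM2664 and A375). So did CDK6, a kinase that INK4 proteins bind (-0.90, -1.36 and -0.94), which at 24 h was still lower in SKMEL5 (-0.81) and was not called in WM2664 or A375 (-0.18 and -0.20). Cyclin E2 (CCNE2) rose at 6 h in all 3 lines (0.61, 0.86 and 0.70), stayed higher in A375 at 24 h (0.71) and was lower in SKMEL5 then (-2.72). TFDP2, a partner of E2F factors, was higher at 24 h in all 3 lines.

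**Figure D4:**
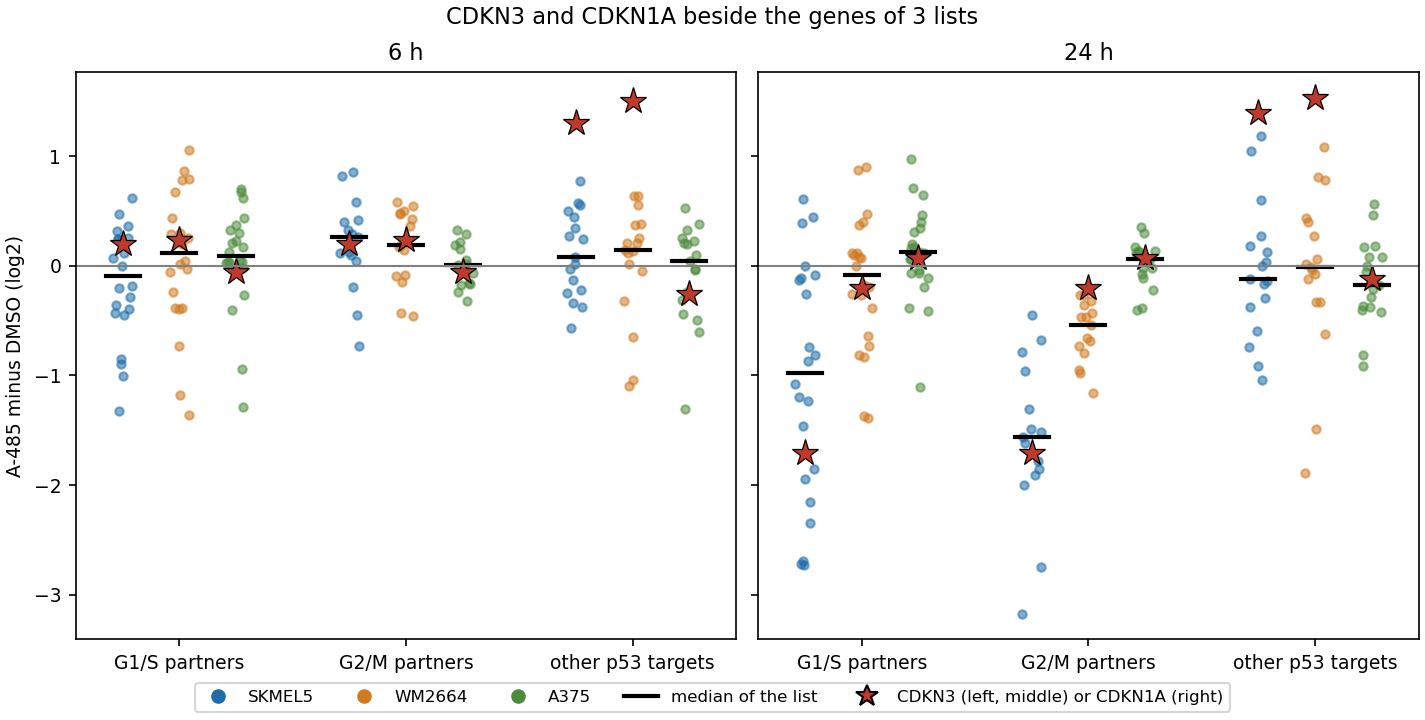
A-485 minus DMSO (log2) for the genes of the G1/S, G2/M and other p53 target lists by line at 6 h and 24 h, 1 point per gene (brightest probe set), with the list median as a bar and CDKN3 (left and middle groups) or CDKN1A (right group) as a star. At 24 h the G2/M points of SKMEL5 centre on -1.56 and those of A375 on 0.07, and the CDKN1A stars of SKMEL5 and WM2664 lie above every other p53 target shown.

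Other p53 target genes were called in both directions. Of 17 tested, 2 were higher and 0 lower in SKMEL5 at 6 h, then 3 and 5 at 24 h. The counts were 3 and 3, then 4 and 3, in WM2664 and 0 and 3, then 2 and 2, in A375. Their medians ran from -0.18 to 0.14. MDM2, the p53 ubiquitin ligase, chosen here after its values were seen, gave -0.29 to 0.12 and was called in no line or time. TP53INP1 was higher at both times in SKMEL5 (0.44 and 1.05) and WM2664 (0.56 and 1.08) and at 24 h in A375 (0.56). FAS, the death receptor, was higher in SKMEL5 at 6 h (0.78) and in WM2664 at both times (0.64 and 0.78). The DNA damage gene DDB2 was lower at 24 h in all 3 lines (-0.74, -1.49 and -0.91), and GDF15 was lower at both times in WM2664 (-1.09 and -1.89).

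Regulators of the inhibitor genes moved in both directions. Of 32 tested, 6 were higher and 6 lower in SKMEL5 at 6 h, then 8 and 8 at 24 h, against 6 and 8, then 8 and 9, in WM2664 and 2 and 9, then 3 and 5, in A375, with medians between -0.03 and 0.02. MYC, which represses CDKN1A, was lower at both times in every line (-3.41 and -2.37 in SKMEL5, -4.12 and -3.40 in WM2664, -2.79 and -1.81 in A375). MXD1, an antagonist of MYC at shared sites, was higher in every line and time (2.55 in SKMEL5, 2.87 in WM2664 and 1.37 in A375 at 6 h). EGR1 was higher by 2.35, 3.15 and 2.15 at 6 h, and KLF6, an activator of CDKN1A, lower (-1.46, -1.78 and -2.16). SMAD3, which carries TGF-beta signals to the inhibitor genes, fell at 6 h in all 3 lines (-1.51, -2.20 and -2.06) and was not called at 24 h. ETS1 fell throughout, least in A375 at 24 h (-0.32).

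Genes for the degradation of CIP/KIP proteins were counted in the same way. Of 14 tested, 1 was higher and 2 lower in SKMEL5 at 6 h, then 2 and 4 at 24 h. The counts were 3 and 0, then 4 and 4, in WM2664 and 0 and 0, then 1 and 0, in A375. SKP2, the substrate receptor for p27, was higher at 6 h in SKMEL5 and WM2664 (0.48 and 0.33) and lower at 24 h (-0.65 and -0.23). Its cofactor CKS1B was lower in both at 24 h (-1.97 and -0.51), as was DTL, the receptor that directs p21 to degradation in S phase (-3.54 and -1.07). None of these 3 was called in A375. Around CDKN1C, 5 genes of 11p15 were tested, and 2 were lower in SKMEL5 at 24 h (CARS1 at -0.51 and NAP1L4 at -0.63), 2 higher in WM2664 at 6 h and 1 lower in A375 at 24 h (PHLDA2 at -0.68).

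Over the 18 arrays, after each line's mean was taken off, CDKN1A was most like IRF5 (r = 0.972), FBXO8 (0.966) and FUT8 (0.959), CDKN1B most like HOXC6 (0.953), MTMR1 (0.933) and CDC14B (0.922), and CDKN3 most like HJURP (0.992), FIRRM (0.988) and DLGAP5 (0.987). Among the members, CDKN1A and CDKN1B correlated at 0.800, CDKN1A and CDKN1C (its brightest probe set) at -0.633, and CDKN1B and CDKN1C at -0.729. These are descriptions over 18 points that share treatment, time and array, with no test. RNA was taken from bulk cultures, in which a change in part of the cells and a change in each cell cannot be told apart.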

How the data were processed

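RNA was labelled with biotin and hybridised to Affymetrix HG-U133 Plus 2.0 arrays, per the labels' protocols. The values deposited by the authors are linear intensities, 1 for each probe set on each array; how they were background-corrected and scaled is not given in the sources used here. Negative values made up 19.3% to 22.9% of an array, and array medians ran from 19.5 to 29.0.

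Of 54613 probe sets, 41091 had 1 symbol in the platform annotation, 1801 several and 11721 none listed. Intensities were quantile normalized between arrays, floored at 32 and log2-transformed, and probe sets with a mean log2 of at least 5.25 were kept (25694). A change in the same direction of most genes would be removed by this step, and the floor compresses differences of dim genes. Titles placed the samples in 12 groups, with 2 arrays in each of the 6 DMSO groups and 1 in each of the 6 A-485 groups. Using limma 3.58.1 (R 4.3.3), 1 mean per group was fitted over the 18 arrays, with 6 residual degrees of freedom, all from DMSO pairs, and 2.11 from moderation. Differences between lines were tested by the limma F-test. P-values were adjusted by Benjamini-Hochberg within each contrast over all probe sets tested. Replicate numbers were checked for pairing between DMSO groups, where same-numbered arrays did not deviate together. Whether an A-485 array pairs with a DMSO array of its line and time could not be checked, since each A-485 group is 1 array.

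Every probe set given to 1 CDK inhibitor gene alone was named. Each gene list was counted by brightest probe set. For each list up to 6 members were picked, those with the largest called mean response, and only some are described above. E2F5, CCNB2, FBXW7, RNF123, CUL4A, SESN2, AEN and TSSC4 were picked and are not described. The members described are therefore a selection, and need not be those with the largest responses. MDM2 and some neighbours of CDKN2A and CDKN2B were named outside this rule. The members and lists were chosen with earlier results of these data known. Promoters were read from RefSeq (GRCh38.p14) and searched on both strands. The fit was tested on simulated data. The number of arrays limits the precision. Alternatives were other scalings, floors, filters, variance models and probe set choices, the replicate block, the arrays of 1 time alone, and arrays left out; leaving out 3 DMSO arrays together was chosen after seeing the data.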

Additional observations from a re-analysis of the deposited data

Results flagged for a closer look

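The response to A-485 differed between the 3 lines, by the limma F-test of the difference itself, for 3 of the genes. For CDKN1A the adjusted p was 0.0001515 at 6 h and 7.323e-05 at 24 h, with SKMEL5 and WM2664 higher and A375 not called. For CDKN1C it was 0.008417 at 24 h on its brightest probe set. SKMEL5 minus WM2664 was 0.88 on this probe set and, with a floor of 16, 0.94 on the second. With a floor of 64 it was -0.12 on the brightest and -0.88 on the second probe set. That floor cuts short the WM2664 fall and not that of SKMEL5, so the turn of sign does not show a smaller fall in WM2664. The F-test on the brightest was lost with that floor (0.243) and with values as deposited (0.128). On the dimmer CDKN1C probe sets it was called only in other settings, given above. For CDKN3 the adjusted p was 0.0001046 on the brighter probe set and 0.0004312 on the second at 24 h, with the fall in SKMEL5. Each A-485 group is 1 array, so leaving it out takes that line out of the test.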

How the results depend on the processing

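Counts of called CDK inhibitor probe sets moved with the settings. With values as deposited the counts were 1 in SKMEL5 at 6 h, 1 and 3 in WM2664 at 6 h and 24 h, 2 in A375 at 6 h and 0 for the DMSO time difference. With 1 probe set per gene, which tests fewer CDKN1C and CDKN3 probe sets, they were 3 and 4 in SKMEL5, 2 in WM2664 at 24 h, 1 and 1 in A375, 3 and 4 for the mean over lines, 2 for the 6 h difference between lines and 6 for DMSO levels. Without _x_at probe sets they were 3 and 5 in SKMEL5, 3 in WM2664 at 24 h, 1 and 1 in A375, 3 and 5 for the mean and 6 for DMSO levels. In A375 at 6 h the count was 2 with a floor of 64, without the filter, with the 6 h arrays alone and without the 3 DMSO arrays; the difference between lines at 6 h was called for 2 with a floor of 64, without the filter and with trend and robust moderation, and 24 h minus 6 h for 6 with a floor of 16. The DMSO time count was 0 under 75th percentile scaling, under the replicate block and without the 3 DMSO arrays. Leaving out 1 array at a time gave 6 to 6 and 7 to 8 in SKMEL5, 3 to 3 and 4 to 6 in WM2664, 3 to 4 and 4 to 4 in A375, 5 to 7 and 6 to 8 for the mean, 0 to 2 and 1 to 5 for differences between lines, 1 to 4 for 24 h minus 6 h, 10 to 10 for DMSO levels and 0 to 1 for the DMSO time difference. DMSO level counts in this paragraph, except that without _x_at probe sets, include the CDKN2A probe set, which passed the filter only through A375. Over all probe sets, the main share for DMSO levels was 87.8%. Calls over all probe sets fell too with values as deposited, in SKMEL5 at 24 h and in A375 at 6 h (counts below). Other counts over all probe sets by setting are not given here. A change in a count of CDK inhibitor probe sets therefore need not be particular to these genes. Reversals were the CDKN1C difference of SKMEL5 minus WM2664 at 24 h with a floor of 64 (-0.12 on the brightest probe set and -0.88, called at an adjusted p of 0.0283, on the second) and the CDKN3 DMSO difference of SKMEL5 minus A375 with values as deposited (-0.068). In the CDKN1C case that floor cuts short the WM2664 fall and not that of SKMEL5. The cause was not tested, except that the floor and the choice of probe sets set the counts by construction.

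Over all probe sets, calls in SKMEL5 at 24 h went from 8164 to 2365 with values as deposited, and in A375 at 6 h from 2335 to 679. Across the 15 pairs of DMSO groups, same-numbered arrays deviated together at r between -0.053 and 0.039, none over 0.1. No pairing was seen between DMSO groups, and pairing of an A-485 array with a DMSO array could not be checked. The replicate block moved no count of the members but the DMSO time difference by over 1.5 times. With A-485 groups of 1 array and 6 residual degrees of freedom, small changes could be missed, and signals near the floor, CDKN2A and CDKN2D among them, have little precision.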
